A study of Mus musculus with 24 samples.

Results

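K-Luc is a mouse glioma line, a luciferase-expressing derivative of KR158B, and the effect described here is that of single-walled carbon nanotubes held in suspension by a lipid-polyethylene glycol coat (SWNT/LP). The members are 11 of the 24 RNA libraries of the study. Of these, 6 come from K-Luc cells that received SWNT/LP, 3 with SWNT/LP as the only treatment and 3 with the immunostimulatory oligonucleotide CpG-28 as well (CpG+SWNT/LP). The other 5 come from K-Luc cells without SWNT/LP, 3 given CpG and 2 untreated, the untreated ones having received 40 µL of water in 2 mL of medium. SWNT, the coat (Lipid-PEG2000-OMe) and CpG-28 were each given at 10 µg/mL. Cells were plated inside and around a culture insert, adhered for 24 h, and were treated for 17 to 19 h while they migrated into the gap. RNA was then taken, and the nanotubes were spun out during extraction. By the labels no group received the coat without nanotubes, so nanotube and coat cannot be told apart. The 3 K-Luc libraries of nanotubes dispersed directly in CpG-28 (SWNT/CpG) carry no lipid-PEG and stayed out of the comparison. RAW-Blue, a RAW macrophage line with a reporter for NF-κB and AP-1, given the same treatments for 47 to 50 h, has 8 libraries in the same 4 groups and was used only to see where K-Luc differs.

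Cells meet falling oxygen, or signals that imitate it, through hypoxia-inducible factor (HIF). Its alpha subunits are made constantly, are hydroxylated by the prolyl hydroxylases of the Egln family and are then destroyed through Vhl. When hydroxylation stops, the alpha subunit pairs with Arnt and raises genes of glycolysis, lactate export, angiogenesis and mitochondrial restraint. In gliomas this programme is known for its link to poorly perfused tissue and to vessel growth. Arnt is also the partner of the aryl hydrocarbon receptor (Ahr), which flat aromatic molecules activate and which raises the cytochromes Cyp1a1 and Cyp1b1. NRF2, encoded by Nfe2l2, raises genes of quinone reduction, aldehyde removal and glutathione synthesis, some of which Ahr raises too.

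Libraries held 18.4 to 23.5 M counts with SWNT/LP and 13.3 to 24.1 M without it, so a level of 1 CPM (counts per 1 M) rests on 13 to 24 counts. Among the glial markers, 7 of 12 averaged over 1 CPM, both with and without SWNT/LP (Sox2, Sox9, Nes, Vim, Slc1a3, Cd44 and Cspg4), while Gfap stayed under 1 CPM in all 11 libraries. The summed level of the glial list was 6592 to 7030 CPM with SWNT/LP and 6734 to 6989 CPM without, against 2040 to 2682 CPM in RAW-Blue. Vim supplied most of it in both lines, at 5469 to 5982 CPM in K-Luc and 1550 to 1994 CPM in RAW-Blue. Fibroblast and vessel markers (Pdgfra, Pdgfrb and Col1a1 over 1 CPM) summed to 4022 to 7412 CPM with SWNT/LP and 4249 to 7952 CPM without. For neuron markers the sums were 193 to 226 CPM with SWNT/LP and 200 to 230 CPM without. Macrophage markers summed to 12.9 to 16.8 CPM with SWNT/LP and 11.2 to 14.6 CPM without, against 5164 to 5909 CPM in RAW-Blue, and Ptprc was at or near 0. In bulk RNA, fewer cells of a type and less RNA per cell cannot be told apart. Replicate 1 stood apart in K-Luc: within a group, the chi-square per degree of freedom of replicate 1 against another replicate was 8.73 to 14.5, and that of replicates 2 and 3 was 2.98 to 3.44. Replicate 1 of CpG+SWNT/LP and of untreated cells belong to run 1 and the other 9 libraries to run 2. Run was a term of the model, but both run 1 libraries are replicate 1, so run and replicate number are partly confounded. Replicate 1 of SWNT/LP (14.5 and 9.76) and of CpG (8.94 and 9.83) stood apart within run 2, which the run term does not take up. The 2 untreated libraries (8.73) cannot show which of them stands apart.

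Of 12375 genes tested, 56 were called at an adjusted p under 0.05, or 0.453%: 23 were higher with SWNT/LP (0.186%) and 33 lower (0.267%). Members of the glycolysis and hypoxia lists made up 15 of the 23 higher genes. The lower genes included the Ahr and NRF2 genes Cyp1b1, Aldh3a1, Nqo1, Adh7, Tiparp and Nfe2l2. Of the 56 genes, 44 changed by less than 1.5-fold and 4 by more than 2-fold, 1190005I06Rik, Cyp1b1 and Aldh3a1 downwards and Lcn2 upwards. The median absolute log2 fold change of the called genes was 0.37, and the median log2 fold change of all genes tested was -0.00086. The same fit called 6117 genes for CpG. The count rests on few libraries: it was 31 without untreated replicate 1 or without CpG+SWNT/LP replicate 1, 34 without untreated replicate 2, and 86 without SWNT/LP replicate 1. All 56 kept their direction in each of these. Leaving out either run 1 library leaves the other alone to set the run term. Both of those fits therefore rest in effect on the run 2 libraries and are not separate checks.

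**Figure D1:**
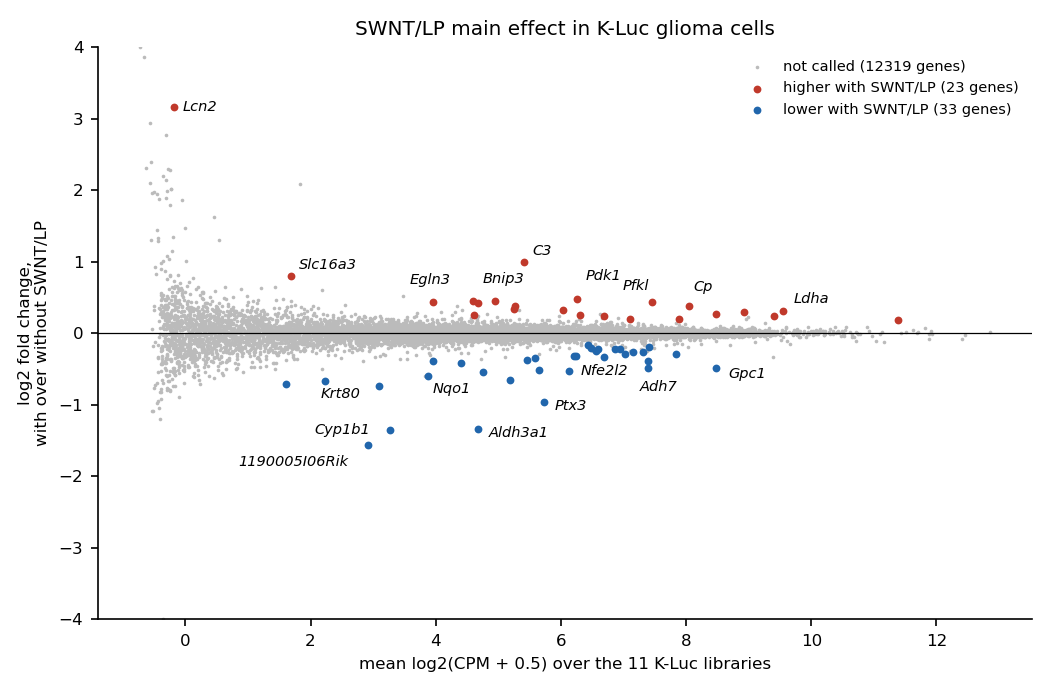
Log2 fold change of each tested gene in K-Luc cells with over without SWNT/LP (y axis, drawn within -4 to 4) against its mean log2(CPM + 0.5) over the 11 libraries (x axis). Red points are the 23 genes called higher and blue points the 33 called lower; grey points are not called, and most called genes lie within 1 log2 unit of 0.

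The glycolysis list holds 21 genes from glucose uptake to lactate export, of which 20 were tested. Of these, 6 were higher with SWNT/LP (Pfkl, Ldha, Tpi1, Aldoa, Pgam1 and Slc16a3) and none was called lower, beside 0.186% of all genes tested called higher. The list's median log2 fold change was 0.17 and 19 of 20 members lay above 0, against 49.3% of all genes tested. An unadjusted p under 0.05 in the higher direction was reached by 13 of the 20, against 2.38% of all genes. The gene lists were chosen with earlier results of these data known, so such shares describe them and are no separate support. Pfkl, the liver isoform of the phosphofructokinase that commits sugar to glycolysis, had 262, 219 and 230.5 CPM with SWNT/LP, against 175 and 166 CPM in untreated cells, and 179, 170.2 and 174 CPM with CpG+SWNT/LP, against 131, 137 and 132 CPM with CpG. Every SWNT/LP library stood above every library of its counterpart without nanotubes (log2 fold change 0.43 ± 0.047 SE, adjusted p = 0.000622). Ldha, which turns pyruvate into lactate, had 993, 1047 and 1032 CPM with SWNT/LP, against 729 and 829 CPM in untreated cells, and 673, 717 and 689.7 CPM with CpG+SWNT/LP, against 569, 625 and 559.7 CPM with CpG (log2 fold change 0.31 ± 0.035 SE, adjusted p = 0.00072). Tpi1, which interconverts the triose phosphates, had 485, 469 and 457 CPM with SWNT/LP, against 361 and 388 CPM in untreated cells, and 337, 328 and 324 CPM with CpG+SWNT/LP, against 293, 290.2 and 269.8 CPM with CpG (log2 fold change 0.26 ± 0.036 SE, adjusted p = 0.00237). The pattern was the same in all 3 enzymes: the SWNT/LP libraries were the highest of all 11, and the CpG libraries the lowest. Per length, Ldha and Aldoa were the highest of the 6, Ldha at 300.5 ± 64.3 RPKM with SWNT/LP and 232 ± 38.7 RPKM without it (mean and SD over 6 and 5 libraries, CpG-treated ones included), and Slc16a3 the lowest, at 0.967 ± 0.388 RPKM with SWNT/LP and 0.520 ± 0.164 RPKM without it. Slc16a3, the transporter that exports lactate, had the largest log2 fold change of the list, with 5.97, 4.12 and 4.33 CPM with SWNT/LP, against 2.92 and 2.09 CPM in untreated cells, and 3.13, 1.99 and 2.73 CPM with CpG+SWNT/LP, against 1.85, 1.49 and 1.67 CPM with CpG (log2 fold change 0.80 ± 0.16 SE, adjusted p = 0.0475). The groups did not overlap in either pair, but at 1.49 to 5.97 CPM the gene rests on few counts. Aldoa (0.23) and Pgam1 (0.34) were the other two. Among members not called, the glucose transporter Slc2a1 missed the threshold at 0.15 (adjusted p = 0.0627), Pgk1 at 0.22 (adjusted p = 0.13) and hexokinase Hk2 at 0.16 (adjusted p = 0.554). Gapdh and Eno1, at 1.56 to 5.17 CPM and 3.21 to 7.82 CPM, rest on few counts. Both are known for many processed copies, among which reads may be split. Aldoart1, an Aldoa retrocopy called higher at 0.25, cannot be told from Aldoa.

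The hypoxia list of 31 other known targets had 30 tested members, 9 of them higher and none lower, with a median log2 fold change of 0.20 and 28 of 30 above 0. Over all genes tested, 0.186% were called higher and 49.3% lay above 0. Pdk1, the kinase that keeps pyruvate out of the mitochondrial citrate cycle, had 116, 103 and 96.8 CPM with SWNT/LP, against 71.7 and 71.3 CPM in untreated cells, and 79.9, 74.9 and 74.2 CPM with CpG+SWNT/LP, against 56.4, 59.3 and 55.6 CPM with CpG (log2 fold change 0.48 ± 0.051 SE, adjusted p = 0.00048). Egln3, a prolyl hydroxylase that acts on HIF and is itself a HIF target, had 33.1, 29.6 and 34.2 CPM with SWNT/LP, against 24.5 and 22.97 CPM in untreated cells, and 25.3, 20.4 and 24.9 CPM with CpG+SWNT/LP, against 17.3, 17.1 and 17.2 CPM with CpG (log2 fold change 0.45 ± 0.061 SE, adjusted p = 0.00233). Bnip3, a mitochondrial receptor for mitophagy, had 45.4, 44.4 and 42.2 CPM with SWNT/LP, against 30.7 and 28.1 CPM in untreated cells, and 31.6, 28.4 and 26.3 CPM with CpG+SWNT/LP, against 23.1, 24.3 and 21.7 CPM with CpG (log2 fold change 0.44 ± 0.065 SE, adjusted p = 0.00448). None of these genes had a library with SWNT/LP below a library without it at the same CpG treatment. Fam162a, a mitochondrial protein raised by hypoxia, had 93.3, 94.8 and 88.8 CPM with SWNT/LP, against 65.6 and 73.7 CPM in untreated cells, and 60.9, 57.04 and 57.1 CPM with CpG+SWNT/LP, against 47.1, 50.3 and 49.6 CPM with CpG (log2 fold change 0.32 ± 0.043 SE, adjusted p = 0.00233). Vegfa, the main growth factor for blood vessels, had 139, 129 and 132 CPM with SWNT/LP, against 109 and 110.2 CPM in untreated cells, and 93.2, 94.5 and 96.7 CPM with CpG+SWNT/LP, against 77.3, 86.5 and 82.4 CPM with CpG (log2 fold change 0.24 ± 0.037 SE, adjusted p = 0.00599). Both genes, too, were highest in the SWNT/LP libraries and lowest in the CpG libraries. The remaining called members were the mitochondrial adenylate kinase Ak4 (0.42), the phosphoglucomutase Pgm2 (0.25), the histone demethylase Kdm3a (0.20) and the collagen prolyl hydroxylase P4ha1 (0.20). Car9, the carbonic anhydrase often used as a hypoxia marker, was not called, with 3.39, 3.07 and 2.635 CPM with SWNT/LP, against 1.42 and 1.24 CPM in untreated cells, and 2.65, 1.95 and 2.64 CPM with CpG+SWNT/LP, against 2.06, 2.10 and 1.75 CPM with CpG (log2 fold change 0.64 ± 0.18 SE, adjusted p = 0.294). Ndrg1 (-0.03) and Ddit4 (0.03), also known as hypoxia targets, stayed near 0, with adjusted p of 1.00 each.

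Of the 8 genes that build or degrade HIF itself, Egln3 alone was called. Hif1a, the oxygen-regulated subunit, had 254, 248 and 241 CPM with SWNT/LP, against 280.3 and 234 CPM in untreated cells, and 261, 227 and 225 CPM with CpG+SWNT/LP, against 235, 231 and 225 CPM with CpG (log2 fold change 0.01 ± 0.032 SE, adjusted p = 1), and the SWNT/LP and untreated libraries overlapped. Log2 fold changes were -0.01 for Epas1, 0.05 for Arnt, 0.14 for Egln1, 0.06 for Egln2, 0.02 for Vhl and -0.0019 for Hif1an, with adjusted p from 0.281 to 1.00. Oxygen and HIF protein were not measured. Of the 15 called glycolysis and hypoxia genes, Pfkl, Ldha, Tpi1, Pdk1, Fam162a and Egln3 were called in every alternative fit. The other 9 missed the threshold in run 2 alone, with adjusted p from 0.0554 for Vegfa to 0.330 for Pgm2, and the count was 6 of 15 without untreated replicate 1 or CpG+SWNT/LP replicate 1 and 9 without untreated replicate 2. Without either run 1 library the fit is in effect that of run 2 alone. Slc16a3 was also lost without SWNT/LP, CpG or CpG+SWNT/LP replicate 3 or SWNT/LP or CpG replicate 2, Pgm2 without the same 5 libraries, Aldoa without SWNT/LP or CpG replicate 3, and Pgam1 without CpG replicate 3.

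**Figure D2:**
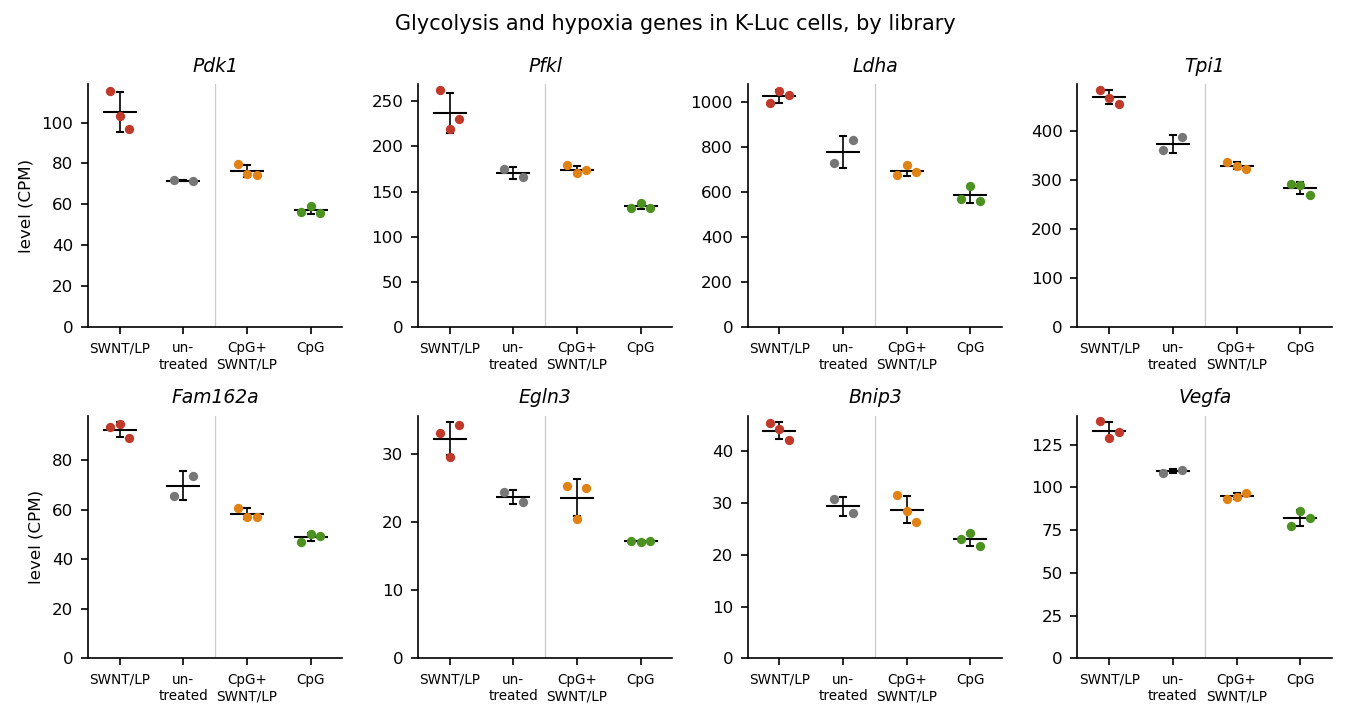
Level in CPM (y axis) of 8 glycolysis and hypoxia genes in each of the 11 K-Luc libraries, by treatment (x axis); points are libraries, bars the mean and SD of a group. In all 8 genes the SWNT/LP libraries lie above the untreated ones and the CpG+SWNT/LP libraries above the CpG ones, as with Pdk1 at 96.8 to 115.6 CPM against 71.3 to 71.7 CPM.

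HIF binds DNA at a short core, ACGTG or GCGTG, and the Ahr-Arnt pair at GCGTG. The promoters of 3 called genes that carry several cores are shown to make the letters visible, as the 250 bases before the start in RefSeq (GRCm38.p6), 5′ to 3′ along the gene, with capitals for these cores on either strand. They lie at chr7:46845554-46845803, plus strand (Ldha), chr7:138909507-138909756, minus strand (Bnip3) and chr16:36071562-36071811, minus strand (Fam162a). Ldha has 2 starts, and the start with most cores was taken.
Ldha: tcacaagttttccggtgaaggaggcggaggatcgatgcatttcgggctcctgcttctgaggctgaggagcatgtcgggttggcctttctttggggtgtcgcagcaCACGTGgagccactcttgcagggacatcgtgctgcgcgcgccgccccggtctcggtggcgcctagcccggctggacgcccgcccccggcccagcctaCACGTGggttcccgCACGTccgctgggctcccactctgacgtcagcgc
Bnip3: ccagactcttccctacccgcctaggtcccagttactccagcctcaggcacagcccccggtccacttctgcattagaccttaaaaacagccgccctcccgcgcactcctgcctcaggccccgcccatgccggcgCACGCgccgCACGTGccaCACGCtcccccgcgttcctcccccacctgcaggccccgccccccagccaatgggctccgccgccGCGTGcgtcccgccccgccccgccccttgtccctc
Fam162a: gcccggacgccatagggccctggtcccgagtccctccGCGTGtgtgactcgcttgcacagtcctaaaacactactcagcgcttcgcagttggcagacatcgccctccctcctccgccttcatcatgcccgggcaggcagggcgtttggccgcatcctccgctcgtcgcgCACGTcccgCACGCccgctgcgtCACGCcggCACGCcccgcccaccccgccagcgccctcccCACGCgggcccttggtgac
The upstream bases of Ldha held the letters CACGTG at 2 places, each read as ACGTG on both strands, and ACGTG once more on the minus strand. Those of Bnip3 held CACGTG once and GCGTG 3 times, and those of Fam162a ACGTG once and GCGTG 5 times. Over windows that run from 250 bases before to 50 after the start, both strands read, ACGTG occurred in 11 of the 15 called glycolysis and hypoxia genes. It also occurred in 65.5% of the 29 tested members of these lists that were not called, in 29.5% of the 9776 tested genes with a window in the table, and in 21.8% of all 27025 genes with a window. A gene was counted if the window of any of its starts held the letters. GCGTG occurred in 10 of the 15, in 62.1% of the members not called and in 57% of tested genes, so the letters do not set called members apart from the others of their lists. A match describes the letters of the window and is not evidence of binding.

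The lower genes included drug-metabolising genes that Ahr raises. The list of Ahr, its partners and targets had 8 tested members of 10, of which 4 were lower (Cyp1b1, Aldh3a1, Nqo1 and Tiparp) and none higher, with a median log2 fold change of -0.39. The share called lower was 0.267% over all genes tested. Cyp1b1, a monooxygenase of steroids and polycyclic aromatic molecules, had 6.45, 3.64 and 3.75 CPM with SWNT/LP, against 14.9 and 12.6 CPM in untreated cells, and 9.34, 7.98 and 5.41 CPM with CpG+SWNT/LP, against 16.2, 14.3 and 20.7 CPM with CpG (log2 fold change -1.35 ± 0.15 SE, adjusted p = 0.00107). Aldh3a1, which oxidises aromatic and lipid aldehydes, had 16.6, 15.7 and 16.2 CPM with SWNT/LP, against 24.7 and 39.8 CPM in untreated cells, and 13.4, 18.97 and 19.5 CPM with CpG+SWNT/LP, against 38.3, 41.6 and 73.8 CPM with CpG (log2 fold change -1.34 ± 0.16 SE, adjusted p = 0.00429). Both were lower in all 6 libraries with SWNT/LP than in any of the 5 without it. Tiparp, a mono-ADP-ribosyltransferase that restrains Ahr, had 110.3, 119 and 111 CPM with SWNT/LP, against 142 and 135 CPM in untreated cells, and 109, 102 and 101 CPM with CpG+SWNT/LP, against 111, 113 and 128 CPM with CpG, a smaller difference (log2 fold change -0.22 ± 0.040 SE, adjusted p = 0.0176). Cyp1a1, the classical Ahr target, was hardly detected: 0 counts in each SWNT/LP library, against 3 and 18 counts in untreated cells, and 2, 1 and 1 counts with CpG+SWNT/LP, against 5, 10 and 101 counts with CpG. Of the 21 counts in untreated cells, 18 came from replicate 2. The gene did not pass the test (adjusted p = 0.459), and most of the CpG counts came from replicate 3. Ahr itself had 34.9, 34.7 and 34.2 CPM with SWNT/LP, against 35.97 and 35.3 CPM in untreated cells, and 36.8, 39.6 and 34.7 CPM with CpG+SWNT/LP, against 33.1, 35.04 and 34.8 CPM with CpG (log2 fold change 0.05 ± 0.047 SE, adjusted p = 1). The conjugating enzyme Ugt1a6a was at -0.21 (adjusted p = 0.760). Of the 3 called targets with an entry in the table, Nqo1 held neither core in its window. The bases upstream of the other two are shown in the same way, at chr17:79715062-79715311, minus strand (Cyp1b1) and chr3:65528197-65528446, plus strand (Tiparp).
Cyp1b1: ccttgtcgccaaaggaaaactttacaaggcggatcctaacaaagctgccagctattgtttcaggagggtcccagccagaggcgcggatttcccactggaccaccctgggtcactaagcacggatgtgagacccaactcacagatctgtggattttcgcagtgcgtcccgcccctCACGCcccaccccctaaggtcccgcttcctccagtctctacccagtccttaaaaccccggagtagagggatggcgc
Tiparp: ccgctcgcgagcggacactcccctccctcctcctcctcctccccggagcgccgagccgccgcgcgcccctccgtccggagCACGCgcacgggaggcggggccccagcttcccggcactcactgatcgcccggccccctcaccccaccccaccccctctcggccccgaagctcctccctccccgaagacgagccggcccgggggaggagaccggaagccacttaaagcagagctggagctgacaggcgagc
Each held GCGTG once, on the minus strand. The letters occurred in 15 of the 23 called lower genes with an entry (65.2%), beside 57% of tested genes.

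The NRF2 list had 28 tested members, of which 4 were lower and none higher, with a median of -0.09 and 25 of 28 below 0. Over all genes tested, 0.267% were called lower and 49.3% lay above 0. Nfe2l2, which encodes NRF2, had 142, 149.9 and 150.2 CPM with SWNT/LP, against 167 and 178 CPM in untreated cells, and 148, 148 and 139 CPM with CpG+SWNT/LP, against 170.1, 179 and 182 CPM with CpG (log2 fold change -0.26 ± 0.034 SE, adjusted p = 0.00191). Nqo1, the quinone reductase that both NRF2 and Ahr raise, had 20.2, 23.4 and 21.7 CPM with SWNT/LP, against 27.7 and 35.7 CPM in untreated cells, and 21.1, 24.3 and 23.3 CPM with CpG+SWNT/LP, against 29.8, 34.1 and 36.3 CPM with CpG (log2 fold change -0.55 ± 0.062 SE, adjusted p = 0.00072). Adh7, an alcohol dehydrogenase of retinol and other alcohols, had 136, 133 and 132 CPM with SWNT/LP, against 199 and 192 CPM in untreated cells, and 173, 141 and 143 CPM with CpG+SWNT/LP, against 214, 190.2 and 219 CPM with CpG (log2 fold change -0.49 ± 0.041 SE, adjusted p = 7.2e-05). All 3 were lower in every SWNT/LP library than in its counterparts, and Aldh3a1 is the fourth called member. Other members moved less. Glucose-6-phosphate dehydrogenase G6pdx stood at -0.11 (adjusted p = 0.112), the glutathione synthesis genes Gclc at -0.20 (adjusted p = 0.684) and Gclm at -0.07 (adjusted p = 0.994), and the haem oxygenase Hmox1 at -0.10, with SWNT/LP libraries at 103 to 124 CPM and untreated ones at 108 and 121 CPM. Keap1, the protein that holds NRF2 down, was at 0.02. An unadjusted p under 0.05 in the lower direction was reached by 12 of 28 members, against 2.55% of all genes. This list, too, was chosen with earlier results of these data known. Cyp1b1, Nqo1, Nfe2l2 and Adh7 were called in every alternative fit. Aldh3a1 missed the threshold without SWNT/LP replicate 1, and Tiparp without either untreated library, any CpG+SWNT/LP library or SWNT/LP replicate 3, in run 2 alone (adjusted p = 0.148) and with no run term.

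**Figure D3:**
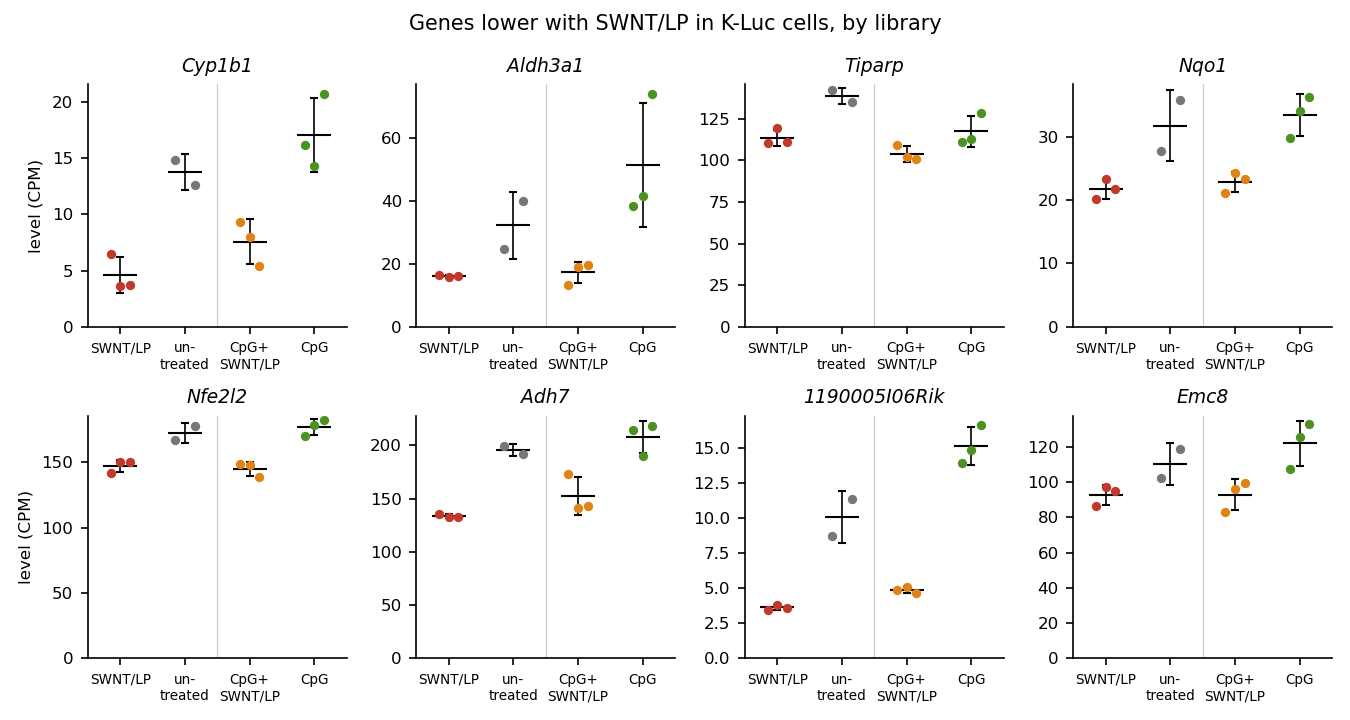
Level in CPM (y axis) of 8 genes called lower with SWNT/LP in each of the 11 K-Luc libraries, by treatment (x axis); points are libraries, bars the mean and SD of a group. The SWNT/LP and CpG+SWNT/LP libraries lie below their counterparts in all 8 genes, with Cyp1b1 at 3.64 to 6.45 CPM against 12.6 and 14.9 CPM.

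The gene with the smallest p of all was 1190005I06Rik, a gene without an established role. It had 3.44, 3.81 and 3.62 CPM with SWNT/LP, against 8.75 and 11.4 CPM in untreated cells, and 4.86, 5.09 and 4.66 CPM with CpG+SWNT/LP, against 13.9, 14.9 and 16.6 CPM with CpG (log2 fold change -1.57 ± 0.078 SE, adjusted p = 1.46e-07), the lowest level with SWNT/LP in both pairs. Its neighbour Emc8, a subunit of the membrane protein insertion complex of the endoplasmic reticulum, fell too, with 86.5, 97.02 and 94.9 CPM with SWNT/LP, against 102 and 119 CPM in untreated cells, and 82.98, 96.2 and 99.4 CPM with CpG+SWNT/LP, against 108, 126 and 133 CPM with CpG (log2 fold change -0.34 ± 0.049 SE, adjusted p = 0.00448). GENCODE M21 places a coding model, Gm27021, over both genes on the same strand. On the other strand it places Gm20388 over both and Cox4i1 over Emc8. The annotation used for counting is not given, so how reads of these overlaps were counted is not known. Emc8 missed the threshold without untreated replicate 1 or CpG+SWNT/LP replicate 1. By the gene order of RefSeq (GRCm38.p6), 12331 pairs of tested genes are neighbours, and 5 pairs were called in the same direction, all lower. Besides this pair on chromosome 8 they were Myeov2 and Gpc1 on chromosome 1, Slc16a13 and Bcl6b on chromosome 11, and Crim1 with Fez2 and Cyp1b1 with Atl2 on chromosome 17. They hold 10 of the 33 lower genes and none of the 23 higher ones. The pairs were named after their values were seen, and no share expected for such pairs was computed. Crim1 and Fez2 overlap on opposite strands. In all, 14 of the 56 called genes overlap a coding gene on the other strand, Cp, Aldoa, Tpi1, Fam162a, Gpc1, Ptx3 and Dfna5 among them, and the strand setting of the counting is not given in the sources used here.

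Outside the Ahr and NRF2 lists, Ptx3, a long pentraxin of innate immunity, had 25.4, 32.9 and 29.7 CPM with SWNT/LP, against 40.5 and 62.3 CPM in untreated cells, and 39.3, 56.5 and 55.1 CPM with CpG+SWNT/LP, against 78.96, 110.0 and 126 CPM with CpG (log2 fold change -0.96 ± 0.11 SE, adjusted p = 0.00199). Gpc1, a heparan sulphate proteoglycan of the cell surface, had 334, 289 and 308 CPM with SWNT/LP, against 396 and 417 CPM in untreated cells, and 286, 308 and 317 CPM with CpG+SWNT/LP, against 425, 399.7 and 518 CPM with CpG (log2 fold change -0.49 ± 0.061 SE, adjusted p = 0.00194). Crim1, a membrane protein that binds bone morphogenetic proteins, had 179.5, 190.3 and 183 CPM with SWNT/LP, against 217 and 224 CPM in untreated cells, and 225, 230.1 and 231 CPM with CpG+SWNT/LP, against 266, 281 and 306 CPM with CpG (log2 fold change -0.29 ± 0.036 SE, adjusted p = 0.00131). In these 3 genes every library with SWNT/LP lay below its counterparts, and Ptx3 and Crim1 were higher in CpG than in untreated libraries. Ptgs2, the inducible cyclooxygenase of prostaglandin synthesis, had 61.2, 72.03 and 69.2 CPM with SWNT/LP, against 73.8 and 107 CPM in untreated cells, and 49.03, 56.9 and 53.5 CPM with CpG+SWNT/LP, against 64.1, 86.1 and 92.1 CPM with CpG (log2 fold change -0.53 ± 0.085 SE, adjusted p = 0.0134). Ier3, an immediate early gene of stress and survival, had 33.5, 35.6 and 37.3 CPM with SWNT/LP, against 36.04 and 59.3 CPM in untreated cells, and 22.8, 25.3 and 27.1 CPM with CpG+SWNT/LP, against 36.4, 42.6 and 55.4 CPM with CpG, with untreated replicate 1 within the range of the SWNT/LP libraries (log2 fold change -0.66 ± 0.098 SE, adjusted p = 0.00669). Ptgs2 missed the threshold without untreated replicate 2, SWNT/LP replicate 1 or CpG+SWNT/LP replicate 3, and with no run term or no filter on low counts, and Ier3 without untreated replicate 2 and with no run term.

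Dfna5, the pore-forming gasdermin E, had 10.9, 13.2 and 11.6 CPM with SWNT/LP, against 16.5 and 22.7 CPM in untreated cells, and 10.9, 12.8 and 11.8 CPM with CpG+SWNT/LP, against 15.4, 16.96 and 18.03 CPM with CpG (log2 fold change -0.61 ± 0.085 SE, adjusted p = 0.0031). Fig4, a phosphoinositide phosphatase of endosomes and lysosomes, had 40.1, 37.7 and 38.4 CPM with SWNT/LP, against 47.9 and 50.6 CPM in untreated cells, and 44.5, 47.3 and 44.7 CPM with CpG+SWNT/LP, against 68.3, 65.2 and 79.5 CPM with CpG (log2 fold change -0.52 ± 0.057 SE, adjusted p = 0.000622). Arl6ip5, a membrane protein of the endoplasmic reticulum, had 139, 152 and 143 CPM with SWNT/LP, against 177 and 199.8 CPM in untreated cells, and 151, 152 and 152 CPM with CpG+SWNT/LP, against 191, 197 and 211 CPM with CpG (log2 fold change -0.39 ± 0.036 SE, adjusted p = 0.000145). The fall was larger in cells without CpG for Dfna5 and larger in CpG-treated cells for Fig4, though neither interaction passed adjustment. Krt80, a keratin (-0.74), Tns4, a tensin of focal adhesions (-0.71), and Il12rb1, a chain of the interleukin 12 receptor (-0.67), fell at 12.5 CPM or less. Tns4 missed the threshold without either untreated library or CpG+SWNT/LP replicate 1, and Il12rb1 without untreated replicate 2 or CpG+SWNT/LP replicate 2 or 3. Tsc22d3, the glucocorticoid-induced leucine zipper gene, fell by 0.33 on the log2 scale and Myeov2, a subunit of the COP9 signalosome, by 0.37. The other called lower genes, Fez2, Mfap3l, Cthrc1, Plekha1, Arhgef3, Btbd11, Slc16a13, Gramd4, Rgl1, Atl2, Aftph and Bcl6b, had log2 fold changes from -0.42 to -0.16. Of these 12, Fez2 and Mfap3l were called in every alternative fit.

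Outside the glycolysis and hypoxia lists, 8 genes were higher, the Aldoa retrocopy Aldoart1 among them, and 3 of the 8 handle iron or copper. The lists do not hold every known HIF target. Cp, ceruloplasmin, a copper-carrying ferroxidase, had 230.3, 245 and 248 CPM with SWNT/LP, against 167 and 188 CPM in untreated cells, and 350.1, 370.1 and 352 CPM with CpG+SWNT/LP, against 282, 294 and 271 CPM with CpG. The groups did not overlap in either pair (log2 fold change 0.38 ± 0.034 SE, adjusted p = 8.81e-05). Tfrc, the receptor that takes up transferrin-bound iron and is also a known HIF target, had 606, 779 and 736 CPM with SWNT/LP, against 534 and 598 CPM in untreated cells, and 405, 438 and 426 CPM with CpG+SWNT/LP, against 314, 366 and 361 CPM with CpG. Levels in CpG-treated cells lay below those without CpG, and the call (log2 fold change 0.30 ± 0.058 SE, adjusted p = 0.0399) was kept in 2 of the 11 fits that leave out a library. Lcn2, a secreted lipocalin that binds iron-loading siderophores, had 15, 28 and 25 counts with SWNT/LP, against 0 and 3 counts in untreated cells, and 11, 13 and 13 counts with CpG+SWNT/LP, against 1, 3 and 1 counts with CpG. On the scale of total counts the ratio was 12.7 (95% counting interval 4.17 to 63.2) without CpG and 7.65 (3.00 to 24.9) with it. The adjusted p was 0.00131 and the gene was called in every alternative fit, although its level never passed 1.23 CPM. The other 15 tested genes of this list were not called: the metallothionein genes Mt1 and Mt2, which metals raise, stood at 0.03 and 0.02, ferritin heavy chain Fth1 at -0.04, ferritin light chain Ftl1 at -0.13 and the iron exporter Slc40a1 at -0.23, with adjusted p from 0.537 to 1.00.

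C3, the central complement component, had 38.9, 40.7 and 42.7 CPM with SWNT/LP, against 12.8 and 23.3 CPM in untreated cells, and 58.2, 94.1 and 87.5 CPM with CpG+SWNT/LP, against 29.6, 48.9 and 52.8 CPM with CpG. No library with SWNT/LP fell among its counterparts (log2 fold change 1.00 ± 0.13 SE, adjusted p = 0.00448). Apln, the secreted peptide apelin, had 40, 42.2 and 45.1 CPM with SWNT/LP, against 25.6 and 30.9 CPM in untreated cells, and 40.4, 44.6 and 44.1 CPM with CpG+SWNT/LP, against 34.9, 38.7 and 37.2 CPM with CpG (log2 fold change 0.37 ± 0.051 SE, adjusted p = 0.00237). Tnfrsf9, the co-stimulatory receptor 4-1BB, had 19.2, 20.9 and 23.7 CPM with SWNT/LP, against 12.1 and 15.9 CPM in untreated cells, and 12.2, 15.2 and 16.4 CPM with CpG+SWNT/LP, against 9.67, 12.8 and 12.6 CPM with CpG, and CpG+SWNT/LP replicate 1 lay within the CpG range (log2 fold change 0.44 ± 0.078 SE, adjusted p = 0.0189). Spp1, the secreted matrix protein osteopontin, was the called gene with the highest level per length, at 1175 ± 155 RPKM with SWNT/LP and 1008 ± 94.4 RPKM without it. In CPM it had 3139, 3208 and 3307 CPM with SWNT/LP, against 2517 and 2875 CPM in untreated cells, and 2445, 2528 and 2656 CPM with CpG+SWNT/LP, against 2218, 2295 and 2419 CPM with CpG (log2 fold change 0.19 ± 0.032 SE, adjusted p = 0.0134). The C3 call was lost without SWNT/LP replicate 1 and with no run term. The Tnfrsf9 and Spp1 calls were lost in run 2 alone (adjusted p = 0.146 each), with no run term, and without either untreated library, SWNT/LP replicate 3, or CpG+SWNT/LP replicate 1 or 3. Leaving out CpG+SWNT/LP replicate 2 ended the call of Tnfrsf9 too, and leaving out CpG replicate 2, or adding the SWNT/CpG libraries to the fit, that of Spp1.

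Of the 30 gene lists, 21 had no called member. They covered chaperones and metallothioneins (13 tested), the unfolded protein and ATF4 response (25), lysosome (34), autophagy (20), sterol and fatty acid synthesis (30), lipid efflux and storage (18), endocytosis (19), focal adhesion (28), SRF and YAP targets (25), TGF-beta, BMP and Id genes (26), mitosis (25), DNA replication (24), p53 targets and apoptosis (24), NF-kB feedback (19), interferon response (30), nucleic acid sensing (16), oxidative phosphorylation (29) and the markers of glia (10), macrophages (4), fibroblasts and vessels (4) and neurons (4). Their medians ran from -0.04 to 0.21, the last for 4 macrophage markers at low level, beside -0.00086 for all genes tested. Some of these lists also leaned in sign, so such a lean was not particular to the lists with calls. DNA replication had 24 of 24 members above 0, sterol and fatty acid synthesis 28 of 30 and mitosis 22 of 25. Oxidative phosphorylation had 24 of 29 below 0. An unadjusted p under 0.05 in that direction was reached by 0, 4, 2 and 4 of their members. In the cytokine and chemokine list, which also holds the enzyme gene Ptgs2, that gene alone of 13 was called, and Cxcl1 (0.62, adjusted p = 0.609) and Ccl7 (0.35, adjusted p = 0.362) were not. The matrix list had 1 of 35, Spp1, and the gasdermin and inflammasome list 1 of 10, Dfna5. Actb, often used for scaling, had 3658, 3767 and 4104 CPM with SWNT/LP, against 3364 and 3783 CPM in untreated cells, and 3103, 3864 and 4209 CPM with CpG+SWNT/LP, against 3844, 3986 and 4085 CPM with CpG (log2 fold change -0.02 ± 0.042 SE, adjusted p = 1).

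**Figure D4:**
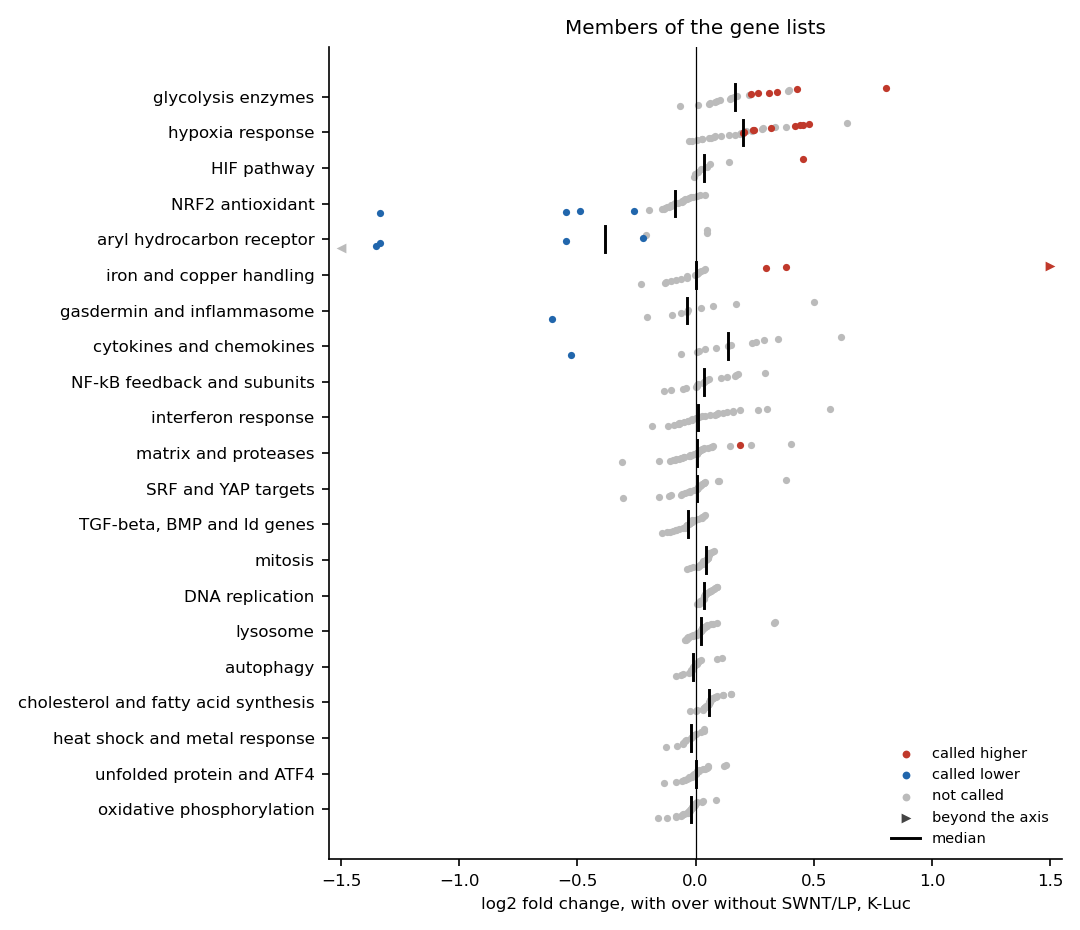
Log2 fold change with over without SWNT/LP in K-Luc (x axis) of each tested member of 21 of the gene lists (rows); red points were called higher, blue lower and grey not called, black bars are list medians, and triangles mark the 2 values beyond the axis, Lcn2 and Cyp1a1. The called points gather in the glycolysis, hypoxia, NRF2 and Ahr rows, whose medians are 0.17, 0.20, -0.09 and -0.39.

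The SWNT/LP effect was also read with CpG and without it. Both readings are contrasts of 1 fit of the 11 libraries. They share its run term and spread and are not independent. In CpG-treated cells 6 genes were called (0.0485%), 1 higher (0.00808%) and 5 lower, and in cells without CpG 10 genes (0.0808%), 5 in each direction. Single libraries move these counts. In CpG-treated cells the count was 30 without SWNT/LP replicate 1, 18 without CpG replicate 1, 2 without CpG+SWNT/LP replicate 1 or untreated replicate 1, 3 without untreated replicate 2 or SWNT/LP replicate 3, and 1 without CpG+SWNT/LP replicate 2 or 3. In cells without CpG it was 0 without untreated replicate 2, 1 without untreated replicate 1 or CpG+SWNT/LP replicate 1, 2 without CpG+SWNT/LP replicate 2, 3 without SWNT/LP replicate 3 or CpG+SWNT/LP replicate 3, and 5 without CpG replicate 2. No gene passed the test of the difference between the 2 effects (0 of 12375, smallest adjusted p = 0.977). Of all genes, 292 had an unadjusted p under 0.05, and DESeq2 called 0. All 56 genes had the same sign with CpG and without it. Of these, 53 had no overlap between libraries with and without SWNT/LP in either setting, beside 0.638% of all genes without overlap upwards and 0.776% downwards. The 56 were called on these same libraries. The counts describe them and are no separate support. The values below are log2 fold changes with their SE. Pdk1 had 0.40 ± 0.068 in CpG-treated cells and 0.58 ± 0.080 in cells without CpG, Ldha had 0.29 ± 0.053 in CpG-treated cells and 0.34 ± 0.062 in cells without CpG, and Egln3 had 0.41 ± 0.090 in CpG-treated cells and 0.51 ± 0.10 in cells without CpG. Cyp1b1 had -1.31 ± 0.21 in CpG-treated cells and -1.41 ± 0.27 in cells without CpG, Nfe2l2 had -0.28 ± 0.050 in CpG-treated cells and -0.23 ± 0.058 in cells without CpG, and 1190005I06Rik had -1.57 ± 0.11 in CpG-treated cells and -1.57 ± 0.14 in cells without CpG. None of these 6 genes had an unadjusted interaction p under 0.05. Bnip3 had 0.26 ± 0.070 in CpG-treated cells and 0.67 ± 0.080 in cells without CpG, with an unadjusted interaction p of 0.00362, and Dfna5 had -0.41 ± 0.099 in CpG-treated cells and -0.86 ± 0.11 in cells without CpG, with 0.0141. These were the 2 called genes with such a p under 0.05, and neither passed adjustment. The effect was larger in cells without CpG for 19 of 23 higher genes and for 12 of 33 lower genes. The same share over all tested genes was not computed, and no interaction was called, so these counts do not show that CpG changed the effect.

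In RAW-Blue the same main effect was called for 107 of 11409 genes (0.938%), 94 higher (0.824%) and 13 lower, a count that was 34 to 59 without any 1 of its CpG+SWNT/LP, SWNT/LP or CpG libraries and 824 without untreated replicate 1. The 2 untreated RAW-Blue libraries differed by a chi-square per degree of freedom of 43.2, against 1.95 to 5.78 within the other groups. Line, treatment time and plating (RAW-Blue cells were seeded inside the insert only) cannot be told apart. Of the 56 genes called in K-Luc, 45 were tested in RAW-Blue. Spp1 alone was called there in the same direction, and Ier3 and Ptgs2 in the opposite one. A fit of both lines called the difference between them for 71 of 13282 genes (0.535%), 15 more positive in K-Luc and 56 more negative, and 17 of the 56 K-Luc genes were among them. That count was 40 or 41 without K-Luc CpG+SWNT/LP replicate 1, either untreated K-Luc library or either RAW-Blue SWNT/LP library, and 227 without RAW-Blue untreated replicate 1.

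None of the 14 called glycolysis and hypoxia genes that could be tested in RAW-Blue was called there. Pdk1 there had 278 and 273 CPM with SWNT/LP, against 262 and 291 CPM in untreated cells, and 199 and 219 CPM with CpG+SWNT/LP, against 225 and 247 CPM with CpG, and the log2 fold changes were 0.48 ± 0.051 in K-Luc and -0.09 ± 0.067 in RAW-Blue (difference 0.57, adjusted p = 0.000949). Pfkl had 0.43 ± 0.047 in K-Luc and -0.15 ± 0.070 in RAW-Blue (difference 0.58, adjusted p = 0.00199), Bnip3 had 0.44 ± 0.065 in K-Luc and -0.16 ± 0.080 in RAW-Blue (difference 0.60, adjusted p = 0.00438), and Fam162a had 0.32 ± 0.043 in K-Luc and -0.14 ± 0.064 in RAW-Blue (difference 0.46, adjusted p = 0.00462). Ak4 and Slc16a3 differed between the lines as well, and Ldha, at 0.31 ± 0.035 in K-Luc and -0.05 ± 0.080 in RAW-Blue, did not pass (adjusted p = 0.0753). Slc16a3 was already at 529 to 694 CPM in RAW-Blue. Egln3, Cyp1b1, Aldh3a1 and Nqo1 were under 1 CPM in all 8 RAW-Blue libraries and were not tested there. C3 had 1.00 ± 0.13 in K-Luc and -0.19 ± 0.15 in RAW-Blue (difference 1.19, adjusted p = 0.0191).

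Of the 33 lower genes, 9 were among those that differed between lines. 1190005I06Rik had -1.57 ± 0.078 in K-Luc and 0.03 ± 0.26 in RAW-Blue (difference -1.59, adjusted p = 0.00199), at 0.613 to 1.55 CPM in RAW-Blue. Adh7 had -0.49 ± 0.041 in K-Luc and 0.27 ± 0.16 in RAW-Blue, Tiparp -0.22 ± 0.040 in K-Luc and 0.31 ± 0.13 in RAW-Blue and Dfna5 -0.61 ± 0.085 in K-Luc and 0.17 ± 0.1 in RAW-Blue, with adjusted p of the differences of 0.0084, 0.0497 and 0.00851. Ptgs2 in RAW-Blue had 205 and 190.0 CPM with SWNT/LP, against 120.0 and 147 CPM in untreated cells, and 396 and 442 CPM with CpG+SWNT/LP, against 295 and 335 CPM with CpG, all libraries with SWNT/LP lying above their counterparts, and its log2 fold changes were -0.53 ± 0.085 in K-Luc and 0.48 ± 0.083 in RAW-Blue (difference -1.01, adjusted p = 0.000237). Ier3 had -0.66 ± 0.098 in K-Luc and 0.57 ± 0.071 in RAW-Blue (difference -1.23, adjusted p = 5.78e-05). Among genes that SWNT/LP raised in RAW-Blue, Pdpn, the mucin-type glycoprotein podoplanin, had 0.03 ± 0.033 in K-Luc and 1.56 ± 0.16 in RAW-Blue, Procr, the endothelial protein C receptor, -0.11 ± 0.061 in K-Luc and 1.06 ± 0.080 in RAW-Blue, and Pappa2, a protease of insulin-like growth factor binding proteins, -0.22 ± 0.11 in K-Luc and 1.96 ± 0.18 in RAW-Blue. In K-Luc, where Pdpn already stood at 66.1 to 89.0 CPM, none of the 3 was called. In RAW-Blue, Pdpn had 1.13 and 1.62 CPM with SWNT/LP, against 0.460 and 0.472 CPM in untreated cells. Pappa2 there had 1.28 and 1.32 CPM with SWNT/LP, against 0.287 and 0.262 CPM in untreated cells. Both RAW-Blue fold changes therefore start from few counts.

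**Figure D5:**
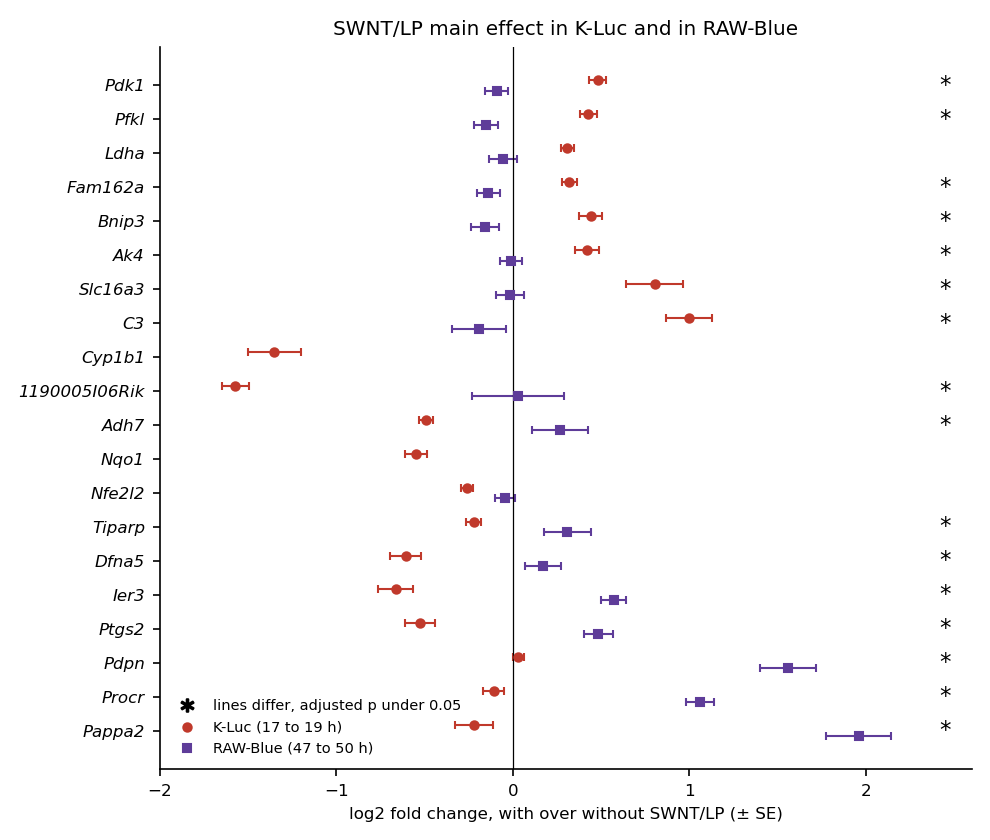
Log2 fold change with over without SWNT/LP (x axis, ± SE) of 20 named genes (rows) in K-Luc (red circles, 11 libraries, 17 to 19 h) and RAW-Blue (purple squares, 8 libraries, 47 to 50 h; no square where the gene was not tested there). Asterisks mark an adjusted p under 0.05 for the difference between lines, as for Pdk1 at 0.48 against -0.09 and Pdpn at 0.03 against 1.56.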

How the data were processed

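RNA-seq libraries of poly(A) RNA were made with a stranded kit, per the labels' protocols. Per the submitters' processing notes, reads were handled with TopHat2 2.0.14 and HTSeq 0.6.0 on mm9; annotation and strand setting are not given. Raw read counts, as deposited, cover 21669 genes in all 24 libraries. Levels per length come from the deposited RPKM values, which the authors rounded to 1 decimal.

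Counts were tested with edgeR 4.0.16 in R 4.3.3 (TMM scaling, filterByExpr by group with minimum count 10 and minimum total 15, robust quasi-likelihood F test, p adjusted by Benjamini-Hochberg over every gene tested, call threshold 0.05). The main effect came from an additive model of SWNT/LP, CpG and run on 11 libraries (7 residual degrees of freedom). The effects with and without CpG and their difference came from group means with run, and the lines were compared in 1 fit of 19 libraries. SE is the log2 fold change over the root of F. CPM are scaled by TMM, over the 14 K-Luc and 10 RAW-Blue libraries. Fits were tested on simulated data. Alternatives were DESeq2 1.42.0, its size factors, no filter, the replicate number as a block, no run term, run 2 alone, all K-Luc libraries and each library left out.

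Members and lists were chosen with earlier results of these data known. Genes given in full were the 10 called rises and 10 falls with the smallest adjusted p and the largest fold change at a mean log2 CPM of at least 1, up to 4 called members of each list, and Hif1a, Epas1, Vegfa, Nfe2l2, Hmox1, Nqo1, Ahr, Cyp1b1, Mt1, Mt2, Dfna5 and Actb. From the line difference, 5 in each direction were taken. The other called genes, the gene neighbours and list members that were not called were named after their values were seen. Whether replicates are separate cultures is not stated in the labels, so the spread behind the p-values may be technical. Promoters are from RefSeq (GRCm38.p6), matched by symbol, with an entry for 9776 tested genes; no coordinate was moved between builds.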

Additional observations from a re-analysis of the deposited data

Results flagged for a closer look

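The SWNT/LP main effect differed between K-Luc and RAW-Blue for 71 genes in the fit of both lines. These are differences of log2 fold changes, K-Luc minus RAW-Blue, and line, treatment time and plating cannot be told apart. More positive in K-Luc were C3 (1.19), Slc16a3 (0.83), Bnip3 (0.60), Pfkl (0.58), Pdk1 (0.57), Fam162a (0.46), Ak4 (0.44) and Chst10 (0.41). Of these, Chst10, a sulphotransferase of the HNK-1 carbohydrate, was the one not called in K-Luc; it was lower in RAW-Blue, with 144 and 152 CPM with SWNT/LP, against 192 and 176 CPM in untreated cells. More negative in K-Luc were Pappa2 (-2.17), 1190005I06Rik (-1.59), Pdpn (-1.53), Ier3 (-1.23), Procr (-1.17), Ptgs2 (-1.01), Dfna5 (-0.77), Adh7 (-0.74), Tiparp (-0.53) and Spp1 (-0.39). Untreated RAW-Blue libraries held under 1 CPM of Pappa2 and Pdpn, so their differences rest on few counts there. Spp1 was called higher in both lines, by 0.19 ± 0.032 in K-Luc and 0.58 ± 0.090 in RAW-Blue (log2 fold change ± SE).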

How the results depend on the processing

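All 56 called genes kept their direction in the 20 settings run, 25 were called in each, and no interaction was called in any. Without either run 1 library the fit was in effect that of run 2 alone, so the settings are not all separate. DESeq2 called 51 genes lower in the main effect, 25 in cells without CpG, 36 in CpG-treated cells, 268 in RAW-Blue and 171 between lines, against 33, 10, 6, 107 and 71. With no filter on low counts, 20 were called without CpG and 18 with it. In run 2 alone 31 genes were called, 10 higher and 21 lower, with 6 glycolysis and hypoxia members, 1 call without CpG, 2 with it and 40 between lines. With the replicate number as a block, 237 genes were called, 130 higher and 107 lower, with 30 glycolysis and hypoxia members and 9 NRF2 members, 47 without CpG, 131 with it and 140 between lines. Deviations of same-numbered K-Luc libraries correlated above 0.1 in 14 of 15 pairs, lowest 0.0946, and 9 of 11 libraries correlated best with their own number, a hint from the data and not the design, so the block is not part of the report. Leaving out 1 library gave 31 to 86 calls, 10 to 33 higher and 21 to 53 lower, 6 to 19 glycolysis and hypoxia members, 3 to 4 NRF2 members, 3 to 4 Ahr members, 0 to 14 without CpG, 1 to 30 with it, 0 to 0 interactions, 34 to 824 in RAW-Blue and 40 to 227 between lines. Depth limits low genes such as Lcn2 and Cyp1a1, since 1 CPM rests on 13 to 24 counts. The cause of these moves was not tested.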

Other observations

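The 3 K-Luc libraries treated with nanotubes dispersed in CpG-28 (SWNT/CpG), a coat without lipid-PEG, entered no comparison here. Cyp1b1 had 6.91, 4.67 and 3.98 CPM in them, Aldh3a1 7.58, 9.30 and 8.14 CPM, 1190005I06Rik 3.24, 5.24 and 4.76 CPM and Adh7 130.1, 107 and 109.5 CPM, below the levels of all CpG+SWNT/LP libraries for Aldh3a1 and Adh7 and overlapping them for the others. Cyp1a1 had 0, 0 and 1 counts. Pdk1 had 75.3, 70.3 and 66.6 CPM and Bnip3 33.5, 29.2 and 25.7 CPM, near the CpG+SWNT/LP libraries, whereas Egln3 had 14.05, 14.1 and 14.01 CPM and Apln 21.8, 24.9 and 25.4 CPM, below all 6 libraries with SWNT/LP. Ldha had 553, 618 and 599 CPM, below all CpG+SWNT/LP libraries and overlapping the CpG ones. Pfkl had 168, 162 and 165 CPM, Tpi1 299, 314 and 294 CPM and Fam162a 53.6, 53.2 and 51.9 CPM. Each lay above all CpG libraries and below all CpG+SWNT/LP libraries. Vegfa had 127, 128 and 130 CPM, above all CpG+SWNT/LP libraries. C3 had 80.8, 112 and 93.8 CPM, above untreated and CpG cells. These libraries were not tested against the others here.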
